A study of Bos taurus with 20 samples.

Results

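Nuclear genes for subunits of the respiratory chain and of ATP synthase were followed in bovine liver across calving and between 2 phosphorus rations. The members are the genes of the array whose symbol belongs to the NDUFA, NDUFB, NDUFC, NDUFS or NDUFV series, to SDHA to SDHD, to the UQCR series, to CYC1 and CYCS, to COX4 to COX8, or to the ATP5 series. This rule took 81 probe sets and, with the brightest probe set kept per symbol, 80 of the 20011 genes measured. Of these, 36 belong to complex I, 4 to complex II, 9 to complex III, 14 to complex IV and 16 to complex V, and CYCS encodes cytochrome c, the mobile carrier between complexes III and IV. NDUFA4 and NDUFA4L2 were counted with complex IV, where the protein of NDUFA4 is now placed. ATP5S fits the symbol pattern and stayed in the count, although its product is not held to be a subunit of ATP synthase.

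Complexes I to IV sit in the inner mitochondrial membrane and pass electrons from NADH and succinate to oxygen, and complexes I, III and IV pump protons as they do so. ATP synthase, complex V, uses the returning protons to join phosphate to ADP, which makes inorganic phosphate a direct substrate of the pathway. All complexes other than complex II combine subunits encoded in the nucleus with a few encoded in mitochondrial DNA, and the liver of a cow that starts to milk relies on them to oxidise fatty acids and to supply ATP for glucose synthesis.

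Liver RNA came from 10 multiparous Holstein-Friesian cows, 5 per diet, each sampled antepartum and postpartum, which gives 4 groups with n = 5 arrays each. Low phosphorus (LP) cows ate a dry cow ration with 0.16% phosphorus in dry matter for the last 4 weeks before calving, with urea added to match nitrogen, and adequate phosphorus (AP) cows ate one with 0.35%, supplied as mono-ammonium phosphate. Dry matter was restricted in both diets before calving, and from calving all cows received one lactation ration with adequate phosphorus, so the postpartum LP group is one of earlier low phosphorus. Cows A to E were LP and cows F to J were AP. The days of sampling are not given in the labels used here.

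Values are log2 signals from Affymetrix bovine gene arrays, so that a difference of 1 is a doubling, and levels were compared only within a gene. Array medians lay between 5.97 and 6.14. The postpartum array of cow C, an LP cow, stood apart from the rest, with a score of 85.8 on a first principal component that held 24.8% of the variance. In that array 8 of 8 fibroblast markers, 7 of 8 adipocyte markers and 7 of 11 skeletal muscle markers reached their highest value of all 20 arrays. Its adipocyte score, the mean deviation of the markers from their own means, was 3.00 against -0.40 to -0.09 in the other 4 arrays of its group, and its hepatocyte score was -0.40 against -0.24 to 0.03. In these bulk samples fewer cells of a type and less RNA per cell cannot be told apart. The main results below are therefore given with and without it. Differences and counts given once are those with all arrays, and many of them moved when it was left out.

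Across calving, most members had slightly higher signals postpartum, but with all arrays none passed the test. Over both diets 58 of 80 members had a positive difference (72.5%, against 46.1% of all genes), and the median difference was 0.073 against -0.012 over all genes. By limma at an adjusted p under 0.05, 0 of 80 members passed in either direction, where 1.5% of all genes did (140 higher and 160 lower). At an unadjusted p under 0.05, 14 members were higher and 0 were lower, and 5.58% of all genes were higher at that level. Without the postpartum array of cow C, 8 of 80 members passed, all higher postpartum, where 2.73% of all genes passed, and the median difference of the members was 0.127 against -0.011. Those 8 were ATP5G1, COX7B, CYC1, UQCRC2, COX5A, NDUFA12, NDUFA7 and NDUFV2, from complexes I, III, IV and V, with COX7B counted from 1 of 2 probe sets that disagree in sign. With all arrays and the animal as a term in the fit, 1 of 80 members passed, NDUFV2 (limma adjusted p = 0.0345), where 1.9% of all genes did.

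The number of members that were higher postpartum differed between cows. Postpartum signals were higher in 69 of 80 members in cow B, 66 in cow G, 65 in cow F, 57 in cow J, 55 in cow D and 55 in cow E. The count was 51 in cow I, 47 in cow A and 45 in cow H. In cow C it was 8 of 80, with a median change of -0.34. The medians of the other 9 cows ran from 0.05 in cow H to 0.30 in cow B. Of all genes, from 43.8% in cow C to 52.6% in cow D were higher postpartum. No member was higher in all 10 cows, where 0.615% of all genes were. In 19 members (23.8%, against 3.63% of all genes) the signal was higher in at least 9 of 10 cows. For 17 of these 19 the exception was cow C. The 8 members that were higher in cow C postpartum were ATP5G2, ATP5I, COX7A1, COX7B2, COX8B, NDUFA4L2, NDUFB1 and UQCRB. These 8 were picked out after their values were seen. Of 3 members that encode muscle forms of their subunits, COX7A1 changed by 0.44, COX8B by 0.24 and COX6A2 by -0.05 in cow C. The skeletal muscle marker score of the postpartum array of cow C was 1.59 against -0.28 to -0.03 in the other LP postpartum arrays. The antepartum array of cow F reached 1.52. In it COX7A1 was 5.97 (group range 5.67 to 6.17), COX8B 4.96 (4.96 to 5.22) and COX6A2 7.68 (7.36 to 7.68). The part of this score in the values of the muscle forms was not tested.

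**Figure D1:**
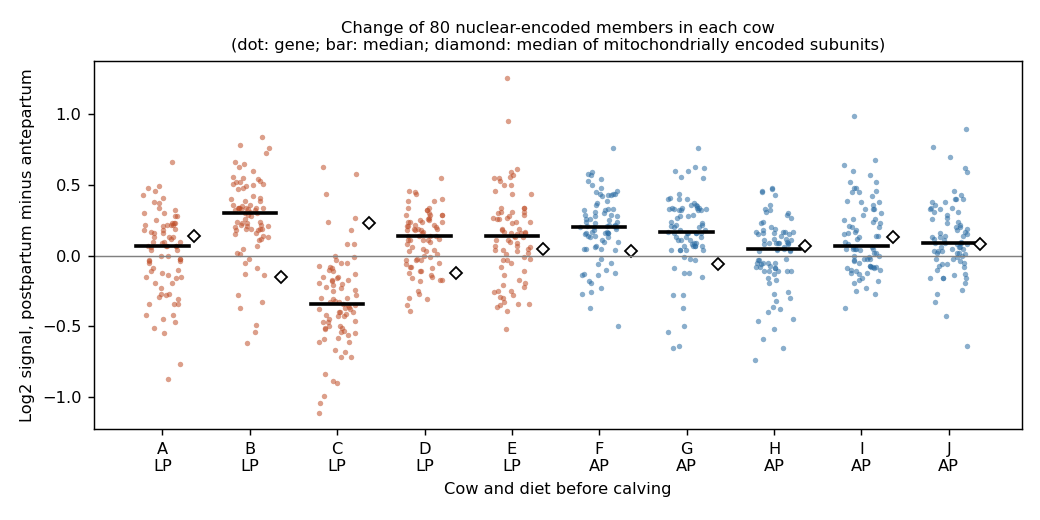
Change in log2 signal from antepartum to postpartum (vertical axis) for each of the 80 members (dots) in each cow (horizontal axis), with the median as a bar and the median of 13 mitochondrially encoded subunits as a diamond. Cow C lies below 0 with a median of -0.34, and the other 9 cows have medians above 0, from 0.05 to 0.30.

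By complex, the median time difference over both diets was 0.166 in complex III, where 7 of 9 members were positive. It was 0.082 in complex V (12 of 16 positive), 0.074 in complex I (26 of 36), 0.047 in complex IV (9 of 14) and 0.04 in complex II (3 of 4). Without the array of cow C these medians were 0.182 in complex III, 0.134 in complex V, 0.144 in complex I, 0.063 in complex IV and 0.107 in complex II. Complex IV as counted includes forms known from lung, muscle, testis or hypoxia, and lacks the common COX6A1, COX6B1, COX6C, COX7C and COX8A. Its median is thus not that of the common forms. The complexes share the same cows and arrays, and the difference between complexes was not tested. Taking each array's median deviation of the members from their own means, the AP arrays ran from -0.144 to 0.009 antepartum and from 0.005 to 0.136 postpartum. The LP arrays ran from -0.115 to 0.047 antepartum, and postpartum from 0.058 to 0.154 in 4 cows with -0.365 in cow C.

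**Figure D2:**
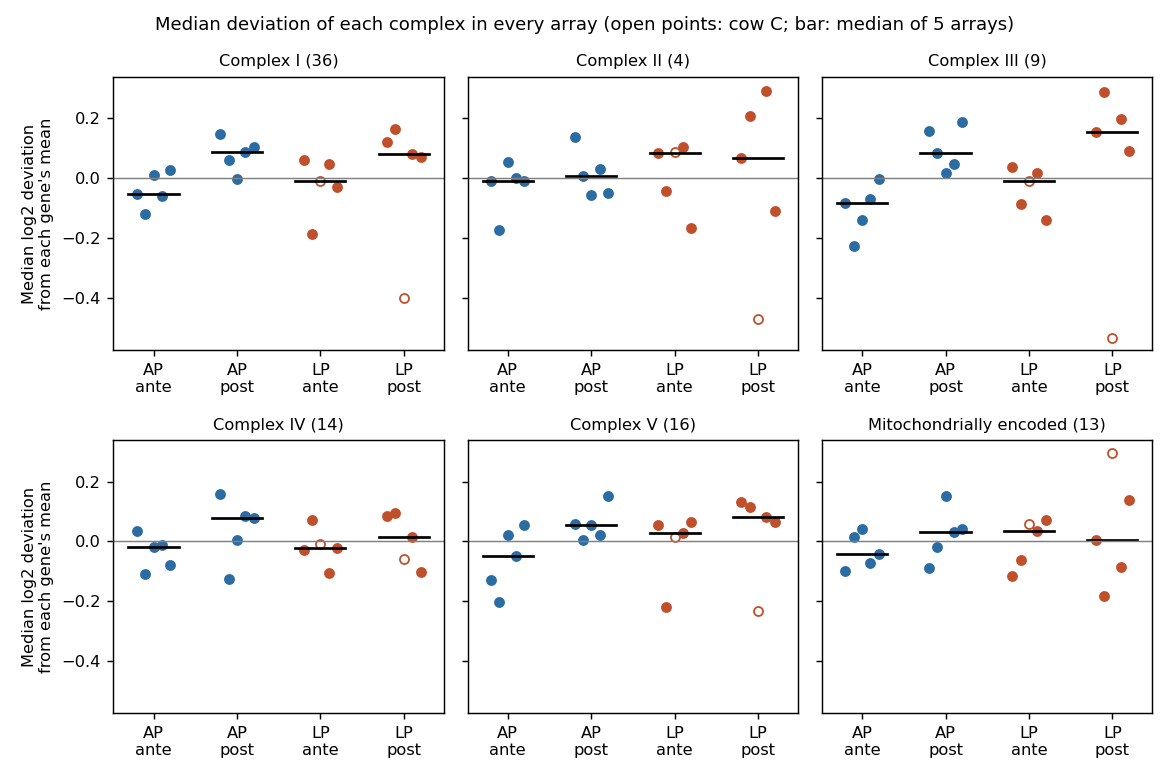
Median log2 deviation from each gene's mean (vertical axis) for the members of complexes I to V and for 13 mitochondrially encoded subunits, in every array of the 4 groups (horizontal axis), with a bar at the group median and open points for cow C. In complex III the postpartum array of cow C lies at -0.533, while the other 4 LP postpartum arrays lie between 0.089 and 0.288.

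Complex I takes electrons from NADH. Its 7 core subunits on the array, which carry the flavin and the iron-sulfur clusters, all had positive time differences, with a median of 0.114 (0.171 without the array of cow C), and 19 of 29 accessory subunits were positive, with a median of 0.053 (0.103). NDUFV2, on chromosome 24, encodes an iron-sulfur core subunit of the NADH-binding module. In AP cows F to J its signal was 9.49, 9.31, 9.83, 9.43 and 9.94 antepartum and 9.95, 10.07, 10.28, 10.08 and 10.27 postpartum. In LP cows A to E it was 9.59, 9.60, 9.72, 9.70 and 9.89 antepartum and 9.66, 9.83, 9.62, 10.10 and 10.00 postpartum. The AP groups only just failed to overlap (9.94 antepartum in cow J, 9.95 postpartum in cow F), while the LP groups overlapped. Cow C alone had a lower value postpartum. The share of all genes without such overlap is not given here, so overlap is only described, for this member and those below. The difference over both diets was 0.33 (1.26-fold, SE 0.0893, 95% interval 0.14 to 0.52, limma adjusted p = 0.0644), and 0.36 without the array of cow C (adjusted p = 0.0292).

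Several other core subunits had smaller differences. NDUFS8, an iron-sulfur subunit, had 0.16 (SE 0.108), NDUFV1, which binds NADH and flavin, 0.12 (SE 0.0948), and NDUFS1, the largest iron-sulfur subunit, 0.10 (SE 0.10). NDUFS3 and NDUFS7 had 0.11 and 0.07. None of these 5 passed with or without the array of cow C, and the lowest limma adjusted p without it was 0.0943, for NDUFV1.

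Among accessory subunits NDUFA7, on chromosome 7, had AP values of 8.29, 8.50, 8.34, 8.50 and 8.37 antepartum and 8.77, 8.82, 8.51, 8.64 and 8.75 postpartum. Its LP values were 8.56, 8.31, 8.62, 8.30 and 8.24 antepartum and 8.64, 8.65, 8.41, 8.76 and 8.70 postpartum. The AP values only just failed to overlap (8.50 antepartum, 8.51 postpartum) and the LP values overlapped. The difference over both diets was 0.26 (1.20-fold, SE 0.0701, limma adjusted p = 0.0663, and 0.0231 without the array of cow C), with a higher value in 9 of 10 cows. The adjusted p of NDUFA7 was 0.135 with the animal as a term and 0.0432 with the animal as a random effect, chosen after seeing the data. NDUFA12, an accessory subunit of the matrix arm on chromosome 5, ran in AP from 8.26 to 8.45 antepartum and from 8.66 to 8.81 postpartum, with no overlap. In LP it ran from 8.44 to 8.69 and from 8.33 to 9.02, with the lowest value in cow C. Its difference was 0.24 (SE 0.0728, limma adjusted p = 0.126, and 0.017 without that array). Another probe set, annotated as similar to NDUFA12 and not a member, had a difference of 0.27 (limma adjusted p = 0.0735 over all probe sets), and which of the 2 loci gave the signal cannot be told from these values.

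NDUFA3, a small subunit of the membrane arm, had 0.35 (1.28-fold, SE 0.124, limma adjusted p = 0.192), and its LP antepartum values spread from 8.14 to 9.30. NDUFA5, an accessory subunit of the matrix arm, had 0.13 (SE 0.097). NDUFS6, a zinc-binding accessory subunit, was the lowest of complex I at -0.18 (SE 0.156, limma adjusted p = 0.76). Its postpartum values in LP were 8.64, 9.70, 8.40, 9.38 and 9.08 and overlapped the antepartum range of 8.77 to 9.69.

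**Figure D3:**
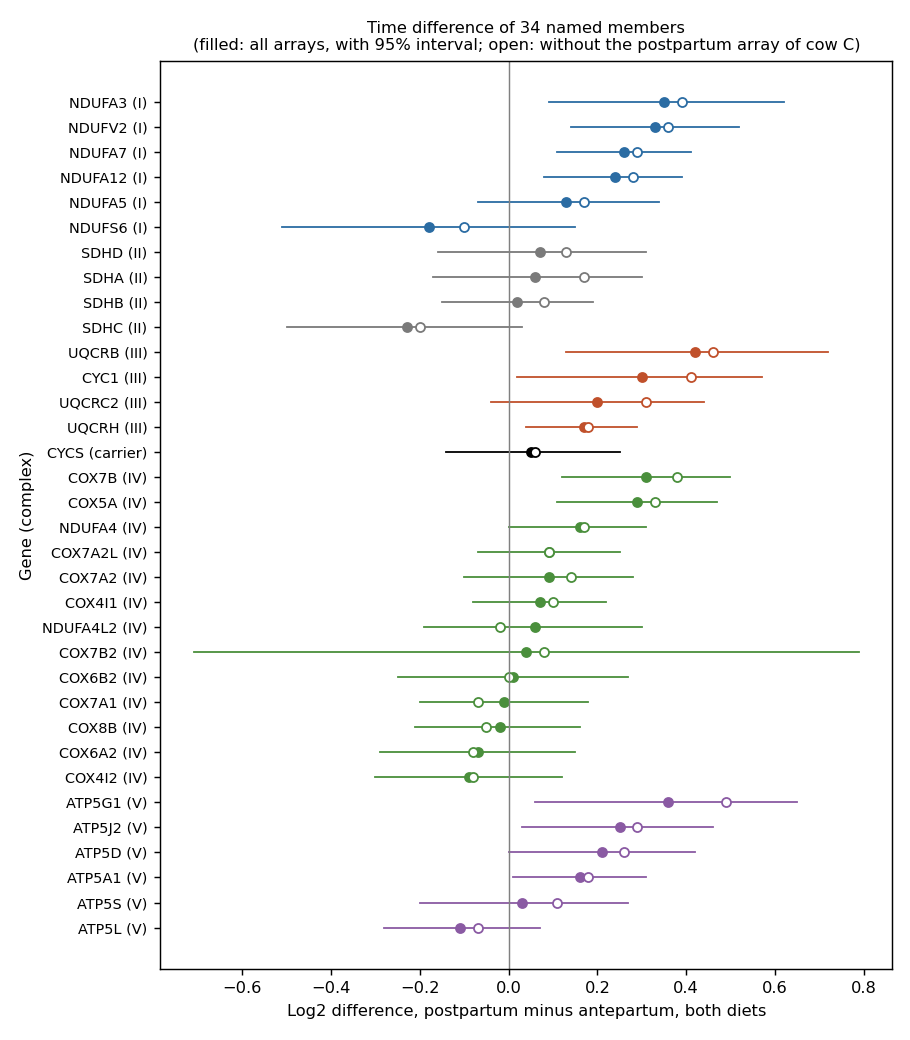
Log2 difference of postpartum minus antepartum over both diets (horizontal axis) for the 34 named members, ordered by complex (vertical axis), with 95% intervals for all arrays (filled points) and the value without the postpartum array of cow C (open points). Among the filled points UQCRB lies furthest right at 0.42 and SDHC furthest left at -0.23, and for ATP5G1 the open point at 0.49 lies to the right of the filled one at 0.36.

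Complex II, succinate dehydrogenase, is also an enzyme of the citrate cycle and is encoded wholly in the nucleus. None of its 4 members passed for time. SDHA, the flavoprotein on chromosome 20, was 9.98, 9.78, 10.04, 9.94 and 9.96 antepartum and 10.18, 10.00, 10.13, 10.11 and 10.06 postpartum in AP. In LP it was 10.04, 9.90, 10.13, 10.00 and 9.91 antepartum and 10.27, 10.18, 9.09, 10.19 and 10.10 postpartum. Every cow other than C had a higher value postpartum, and cow C had a change of -1.04. The difference was 0.06 (SE 0.112, limma adjusted p = 0.911), and 0.17 without the array of cow C (adjusted p = 0.14). SDHB, the iron-sulfur subunit, had 0.02 (SE 0.0791), and its LP postpartum value was 9.94 in cow C against 10.53 to 10.66 in the other 4. Of the membrane anchors, SDHD had 0.07 (SE 0.109), and SDHC had -0.23 (1.18-fold lower, SE 0.126, limma adjusted p = 0.502), with lower values postpartum in 8 of 10 cows.

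Complex III passes electrons from ubiquinol to cytochrome c. UQCRB, a ubiquinone-binding subunit on chromosome 14, had the largest time difference of all members with all arrays, 0.42 (1.34-fold, SE 0.14, 95% interval 0.13 to 0.72, limma adjusted p = 0.161). Without the array of cow C it was 0.46 (adjusted p = 0.0973), below the 0.49 of ATP5G1. In AP its antepartum values ran from 8.33 to 8.98 and its postpartum values from 8.65 to 9.57. In LP they ran from 8.14 to 8.83 and from 8.55 to 9.62, so the times overlapped in both diets. The signal was higher in 9 of 10 cows, with cow A as the exception. UQCRH, the hinge protein that helps cytochrome c dock, had 0.17 (SE 0.0605, limma adjusted p = 0.22).

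CYC1, on chromosome 14, encodes cytochrome c1, the heme protein that hands electrons to cytochrome c. Its AP values were 8.03, 7.79, 7.97, 8.03 and 7.85 antepartum and 8.57, 8.35, 8.12, 8.41 and 8.47 postpartum. Its LP values were 8.33, 7.94, 8.04, 8.18 and 7.78 antepartum and 8.29, 8.70, 7.31, 8.57 and 8.11 postpartum. The AP values did not overlap, and in LP cows A and C were lower postpartum. The difference was 0.30 (1.23-fold, SE 0.13, limma adjusted p = 0.347), and 0.41 (1.33-fold, adjusted p = 0.0129) without the array of cow C. UQCRC2, a core protein of complex III on chromosome 25, went from 9.61 ± 0.11 (SD, n = 5) to 9.91 ± 0.05 in AP and from 9.71 ± 0.19 to 9.82 ± 0.48 in LP. In LP its postpartum value was 8.97 in cow C and 9.89 to 10.14 in the other 4 cows. The difference was 0.20 (SE 0.114, limma adjusted p = 0.536), and 0.31 (1.24-fold, adjusted p = 0.0166) without that array.

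CYCS, on chromosome 4, encodes cytochrome c. Its AP values were 5.75, 5.96, 5.60, 5.67 and 5.64 antepartum and 5.98, 6.17, 5.93, 6.15 and 6.23 postpartum. Its LP values were 6.74, 6.09, 5.98, 6.16 and 6.12 antepartum and 5.97, 5.72, 5.92, 5.92 and 6.25 postpartum. The signal was higher postpartum in 5 of 5 AP cows and lower in 4 of 5 LP cows, and over both diets the difference was 0.05 (SE 0.0918, limma adjusted p = 0.902). Antepartum, the lowest LP value of 5.98 lay just above the highest AP value of 5.96.

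**Figure D4:**
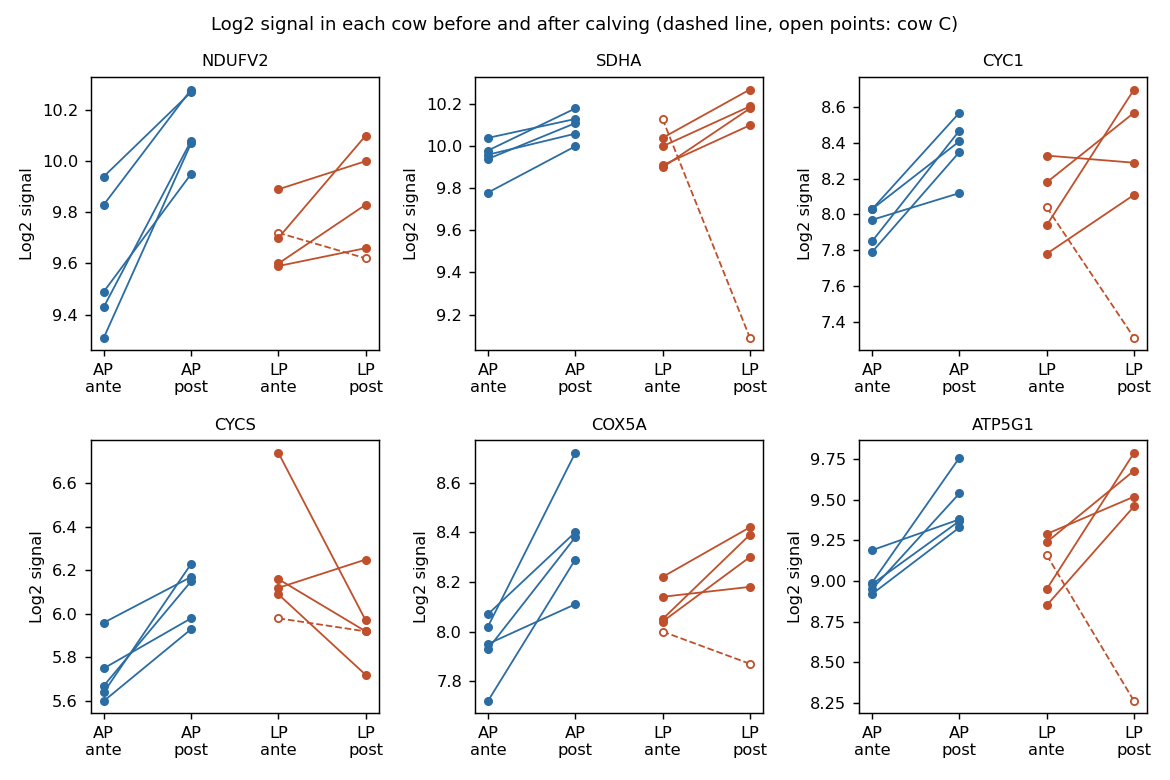
Log2 signal (vertical axis) of NDUFV2, SDHA, CYC1, CYCS, COX5A and ATP5G1 in each cow before and after calving (horizontal axis, AP in blue and LP in red), each line joining the arrays of one cow and the dashed line marking cow C. For SDHA the 4 other LP cows end between 10.10 and 10.27 and cow C ends at 9.09, while for CYCS all 5 AP cows end higher than they began.

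Complex IV hands the electrons to oxygen. COX5A, a matrix-side subunit on chromosome 21, had AP values of 7.93, 8.07, 7.95, 7.72 and 8.02 antepartum and 8.38, 8.40, 8.11, 8.29 and 8.72 postpartum. Its LP values were 8.14, 8.04, 8.00, 8.22 and 8.05 antepartum and 8.18, 8.30, 7.87, 8.42 and 8.39 postpartum. The AP values did not overlap, and in LP cow C alone was lower postpartum. The difference was 0.29 (1.22-fold, SE 0.0834, 95% interval 0.11 to 0.47, limma adjusted p = 0.0931), and 0.33 (adjusted p = 0.017) without the array of cow C.

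COX7B encodes a small membrane-spanning subunit, and it was the only member with 2 probe sets. The brighter one, on chromosome 7, had a mean of 8.29 and a time difference of 0.31 (1.24-fold, SE 0.0907, limma adjusted p = 0.0964, and 0.00458 without the array of cow C). The other, on chromosome X, had a mean of 5.47 and a difference of -0.09 (SE 0.106). The 2 probe sets thus disagree in sign, and with their mean in place of the brighter one the difference was 0.11 (limma adjusted p = 0.701). A further probe set, without a symbol and annotated as subunit VIIb, had 0.09 (limma adjusted p = 0.905, and 0.872 without the array of cow C). The value counted for COX7B is that of the chromosome 7 probe set only, and whether it reads COX7B or another copy of it was not tested. NDUFA4 had 0.16 (SE 0.0739, limma adjusted p = 0.41), and COX7A2L, which links complexes III and IV into supercomplexes, had 0.09 (SE 0.0767).

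Several subunits of complex IV have a form known from heart, muscle, lung or testis beside the common one. COX4I1, the common form, had a time difference of 0.07 (SE 0.0713), and COX4I2, known from lung, had -0.09 (SE 0.099). COX7A2 had 0.09 (SE 0.0898) and its muscle form COX7A1 had -0.01 (SE 0.0896). The muscle forms COX6A2 and COX8B had -0.07 (SE 0.103) and -0.02 (SE 0.0856), and the testis forms COX6B2 and COX7B2 had 0.01 (SE 0.121) and 0.04 (SE 0.355). NDUFA4L2, a relative of NDUFA4 known from hypoxia, had 0.06 (SE 0.118) with a signal between 3.19 and 4.33. None of these differences passed the test, and COX7B2, with a mean of 3.63, ranged from 2.73 to 5.44 between arrays. The common forms COX6A1, COX6B1, COX6C, COX7C and COX8A carry no such symbol on the array and are not members. Of 25 further probe sets whose transcript note names a subunit or a pseudogene of one, 14 were positive and 0 passed for time by limma, where 1.16% of all probe sets did. Among them a predicted locus annotated as COX8A had 0.37 (limma adjusted p = 0.0581) and a COX6C probe set 0.27 (adjusted p = 0.11). The probe set of the COX8A mRNA itself had 0.16 (limma adjusted p = 0.528, and 0.585 without the array of cow C). Without the array of cow C, 3 of the 25 passed, the predicted COX8A locus, COX6C and the NDUFA12-like one, where 2.12% of all probe sets did.

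Complex V makes ATP. ATP5G1, on chromosome 19, is one of the genes for subunit c, which forms the rotating ring in the membrane. Its AP values were 8.95, 8.92, 9.19, 8.98 and 8.99 antepartum and 9.54, 9.33, 9.38, 9.37 and 9.76 postpartum. Its LP values were 9.29, 8.95, 9.16, 9.24 and 8.85 antepartum and 9.52, 9.79, 8.26, 9.68 and 9.46 postpartum. Apart from cow C, every postpartum value lay above every antepartum value of its diet. The difference was 0.36 (1.28-fold, SE 0.14, limma adjusted p = 0.27), and 0.49 (1.41-fold, adjusted p = 0.00139) without the array of cow C. ATP5G2 and ATP5G3, which encode the same subunit, had -0.07 and 0.17.

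In the catalytic head of the enzyme, ATP5A1, the alpha subunit, had 0.16 (SE 0.0686, limma adjusted p = 0.335), ATP5B, the beta subunit, had 0.14, and ATP5D, the delta subunit of the central stalk, had 0.21 (SE 0.101, adjusted p = 0.422). ATP5J2, subunit f of the membrane part, had 0.25 (SE 0.101, limma adjusted p = 0.305) with a higher value in 9 of 10 cows. ATP5L, subunit g, had a mean signal of 10.9 and a difference of -0.11 (SE 0.082). ATP5S had 0.03 (SE 0.112).

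Within AP, 57 of 80 members were higher postpartum (71.2%, against 44.2% of all genes), with a median difference of 0.116 against -0.024. None of the 80 passed by limma, where 0.415% of all genes did, and 15 were higher at an unadjusted p under 0.05, against 4.89% of all genes. NDUFV2 had the largest difference, 0.53 (1.44-fold, SE 0.126, 95% interval 0.26 to 0.79, limma adjusted p = 0.0693). With the animal in the model its adjusted p was 0.0365. COX5A had 0.44 (1.36-fold, SE 0.118, limma adjusted p = 0.112) and NDUFA12 0.36 (1.28-fold, SE 0.103, adjusted p = 0.138). CYC1 had 0.45 (SE 0.183), ATP5D 0.33 (SE 0.142), SDHA 0.16 and UQCRC2 0.29. When the postpartum array of cow C was left out, the AP differences stayed as they were and only the shared estimate of the spread changed. Then 4 of 80 members passed, where 1.43% of all genes did, namely NDUFV2 (limma adjusted p = 0.0321), COX5A (0.0363), NDUFA12 (0.0414) and ATP5G1 (0.0311).

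Within LP, 53 of 80 members were higher postpartum (66.2%, against 49.1% of all genes), with a median difference of 0.043 against -0.003. None passed by limma, where 0.015% of all genes did, and 2 were higher at an unadjusted p under 0.05, against 2.38% of all genes. These 2 were NDUFA7 (0.23, SE 0.0991, limma adjusted p = 0.803) and COX7B (0.27, SE 0.128, adjusted p = 0.83). Without the array of cow C, 63 of 80 were higher (78.8%, against 50.7% of all genes), with a median of 0.153. At an unadjusted p under 0.05, 14 were higher, against 3.2% of all genes. Again none passed, where 0.045% of all genes did.

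The diet comparison asked whether restricted phosphorus went with another level of these genes. On the antepartum arrays, whose day of sampling is not given, 0 of 80 members passed by limma, where 0.005% of all genes did. At an unadjusted p under 0.05, 1 member was higher, against 1.21% of all genes. The median difference, LP minus AP, was 0.037 against -0.003 over all genes, and 52 of 80 were positive (65%, against 48.9% of all genes). The 1 member was CYCS, 1.41-fold higher in LP (log2 difference 0.49, SE 0.13, 95% interval 0.22 to 0.77, limma unadjusted p = 0.00106, adjusted p = 1). LP cows averaged 6.22 ± 0.30 (SD, n = 5) against 5.72 ± 0.14 for AP cows, and cow A had the highest LP value at 6.74 against 5.98 to 6.16 in the others. Macrophage marker scores also differed in these arrays, from -0.14 to 0.62 in LP, with cow A the lowest, and from -0.21 to 0.13 in AP; their part in the CYCS difference was not tested. NDUFA12 followed at 0.19 (SE 0.103) and NDUFA4L2 at -0.29 (SE 0.166).

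Postpartum, with both groups on the same ration, again 0 of 80 passed by limma, where 0.005% of all genes did, and at an unadjusted p under 0.05 there were 0 higher and 2 lower members, against 2.5% of all genes lower. The median was -0.049 with 26 of 80 positive (32.5%, against 50.8% of all genes). Without the array of cow C it was 0.041 with 54 of 80 positive (67.5%, against 53.4% of all genes). The sign of this median thus rested on 1 array. ATP5S was 1.36-fold lower in LP (log2 difference -0.44, SE 0.159, limma adjusted p = 0.812) and -0.29 without that array. NDUFV2 followed at -0.29 (SE 0.126) and NDUFA5 at -0.27 (SE 0.137), and these were -0.23 and -0.19 without it.

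The diet by time interaction tests whether the change across calving differed between diets. By limma 0 of 80 members passed, where 0% of all genes did, and at an unadjusted p under 0.05 there were 0 positive and 3 negative members, against 1.12% of all genes negative. The median interaction of the members was -0.073, with 17 of 80 positive (21.2%, against 50.2% of all genes). Without the array of cow C it was 0.02, with 49 of 80 positive (61.3%, against 52.8% of all genes). CYCS had the most negative value, -0.63 (SE 0.184, limma unadjusted p = 0.00251, adjusted p = 1), and kept -0.62 without that array. ATP5S had -0.54 (SE 0.225) and NDUFV2 -0.38 (SE 0.179), which were -0.39 and -0.33 without it. For these 3 members the change across calving was lower in LP than in AP, by an amount that did not pass the test.

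The 13 subunits encoded in mitochondrial DNA each had a probe set, fitted among all 24333 probe sets. Their mean log2 signals ran from 9.84 to 13.72, and all but the dimmest lay above the brightest nuclear member, ATP5L at 10.9. Whether signals this bright register a change as fully as dimmer ones was not tested. For time over both diets 13 of 13 were positive, with a median of 0.058 against -0.009 over all probe sets, and 0 passed by limma, where 1.16% of all probe sets did, with 0 at an unadjusted p under 0.05. Without the array of cow C, 8 of 13 were positive with a median of 0.008. In cow C itself 13 of 13 were higher postpartum, with a median change of 0.23, against 8 of 80 nuclear members with a median of -0.34. In cow B the order was turned, with 1 of 13 mitochondrially encoded subunits higher and a median of -0.15, against 69 of 80 nuclear members. In cow D, likewise, 1 of 13 was higher against 55 of 80, and in cow I 13 of 13 against 51 of 80. Of the 13, the number higher was 12 in cow A, 10 in E, 9 in F, 3 in G, 12 in H and 10 in J. Each of these is a pair of arrays with no replicate of its own, and the contrast between the 2 sets was not tested.

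Other genes of the pathway were taken from lists given by function. Of 4 genes outside the symbol rule, NDUFAB1, ATPIF1, USMG5 and C21H14orf2, 1 passed for time, where 1.5% of all genes did. ATPIF1 encodes an inhibitor of ATP synthase rather than a subunit. The gene that passed, C21H14orf2, encodes a small ATP synthase subunit (0.30, 1.23-fold, SE 0.071, limma adjusted p = 0.0318), with all 10 cows higher. USMG5, another small ATP synthase subunit, had 0.14 (adjusted p = 0.605). Among 43 assembly factors 25 were positive, or 31 without the array of cow C, and none passed in either case. The lowest p were those of COX14, a complex IV assembly factor, at 0.31 (limma adjusted p = 0.104) and COA5 at -0.19 (adjusted p = 0.232).

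Of 16 citrate cycle and pyruvate dehydrogenase enzymes 12 were positive, with a median of 0.152, and 1 passed, where 1.5% of all genes did. It was OGDH, a subunit of 2-oxoglutarate dehydrogenase, which rose 1.46-fold (log2 difference 0.55, SE 0.105, limma adjusted p = 0.00953) and had a higher value in 9 of 10 cows. DLAT, of pyruvate dehydrogenase, had 0.31 (adjusted p = 0.0838). Without the array of cow C 4 of the 16 passed, where 2.73% of all genes did. Among 10 regulators of mitochondrial biogenesis 5 were positive and none passed. PPARGC1A, the coactivator that promotes mitochondrial biogenesis and gluconeogenesis, had 0.52 (1.43-fold, SE 0.144, limma adjusted p = 0.081, and 0.0033 without that array), while GABPA, a transcription factor for many respiratory genes, had -0.17 (adjusted p = 0.354).

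Of 22 genes of the mitochondrial membrane and import 14 were positive, or 17 without the array of cow C. TIMM50 at -0.23 and HSPD1 at 0.25 were lowest in p, and none passed. Of 9 genes for uncoupling or other electron entry 5 were positive and none passed with all arrays. ETFDH, which passes electrons from fatty acid oxidation to ubiquinone, had 0.34 (limma adjusted p = 0.171, and 0.000757 without the array of cow C), and CHDH, choline dehydrogenase, had -0.22 (adjusted p = 0.382). Of 76 mitochondrial ribosomal protein genes 33 were positive, with a median of -0.013, and 49 with a median of 0.032 without that array, and none passed in either case. MRPL48 had -0.26 and MRPS2 had 0.27, the lowest p of that list.

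Liver identity and other cell types were read from marker lists in the same arrays, beside the 1.5% of all genes that passed for time. Of 10 hepatocyte markers 2 were positive for time and 3 passed, all lower, among them TTR, a plasma thyroxine carrier, at -0.61 (limma adjusted p = 0.00539) and TF, transferrin, at -0.25 (adjusted p = 0.0301). Of 11 macrophage markers 1 was positive and 1 passed, C1QC, a complement component, at -0.56 (limma adjusted p = 0.034), with CD5L at -0.45 (adjusted p = 0.0546). Of 8 adipocyte markers 7 were positive with all arrays and 5 without that of cow C, and 1 passed, CFD, which was lower at -0.47 (limma adjusted p = 0.0269), while CIDEC had 0.61 (0.19 without the array of cow C).

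With all arrays, no marker of the remaining lists passed. Of 8 fibroblast markers 7 were positive, or 3 without the array of cow C, and COL1A1 had 0.68 and FBLN1 0.38, which were 0.10 and 0.03 without that array. Skeletal muscle markers were positive in 4 of 11, or 1 without that array (MYLPF -0.21, TNNT1 0.14). Endothelial markers were positive in 2 of 6 (CLEC4G -0.24, VWF 0.25, or 0.02 without that array). Cholangiocyte markers were positive in 0 of 5 (KRT7 -0.17, CFTR -0.12) and T or NK cell markers in 0 of 7 (CD3D -0.28, CD8A -0.14). Neutrophil markers were positive in 3 of 5 (S100A8 0.35, CXCR2 -0.18) and erythroid markers in 1 of 6. HBB, a hemoglobin gene of the last list, had -1.02 (limma adjusted p = 0.0728) and was lower in 10 of 10 cows, and ALAS2, of heme synthesis, had -0.15. The group median of the hepatocyte score in AP was 0.10 antepartum and -0.06 postpartum. In LP it was 0.11 and -0.15. By group medians this score was thus lower where the members' medians were higher, but single arrays did not all follow this. The postpartum array of cow C had the lowest hepatocyte score, -0.40, with the lowest member median, -0.365. The scores of cows A, B, D and E postpartum were 0.03, 0, -0.15 and -0.24. Their member medians were 0.112, 0.154, 0.117 and 0.058. The part of the hepatocyte score in the members' values was not tested.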

How the data were processed

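Liver RNA of 20 samples was measured on Affymetrix bovine gene arrays. The authors deposited log2 signals for 24333 probe sets. Per the submitters' processing notes these came from RMA in Affymetrix Expression Console 1.4, and the workbook names SST-RMA. For each probe set the authors deposited, too, a postpartum to antepartum log2 ratio, a fold change written as a score (below 0 where lower) and a p-value. Their log2 ratio and the one computed here differed by at most 7.11e-15 over the members, and a second deposited table of rounded log2 signals differed by at most 0.005. No source used here gives the genome build of the workbook.

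Probe sets without a symbol (3912) were left out, and the brightest probe set per symbol was kept. All 80 members matched a RefSeq name table of assembly ARS-UCD2.0, 70 by accession and 10 by symbol or synonym, used for names only. Symbols are those of the workbook. Differences were tested two-sided with limma 3.58.1 in R 4.3.3 on 4 group means over all 20 arrays, without a block, adjusted by the Benjamini-Hochberg method over 20011 genes, with a threshold of 0.05, in 6 comparisons. Members and lists were chosen with earlier results of these data known. The code was tested on simulated data.

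Named members are those of lowest p for time in each complex, all of complex II, the brightest of each complex, the 3 of lowest p in each other comparison, the 3 most negative for time, paired tissue forms, NDUFV2 and COX5A, 34 in all. Of each other list the 2 genes of lowest p are named. Further members, such as the other core subunits of complex I, are given outside this rule.

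Animals were read from a number in the sample titles that occurs once at each time. Residuals of arrays of the same animal correlated with a median r of 0.167 (0.072 to 0.312, over 0.1 in 8 of 10 animals). Since they come from the same animal, the fit with the animal as a term is given where it changes a call. Alternatives were that block, quantile normalization, median centring, a filter on dim genes (mean log2 of at least 5), averaged probe sets, a trended robust variance, the rounded table, only the groups compared, and leaving out each cow or the postpartum array of cow C. The animal as a random effect was added after seeing the data. With 5 arrays per group, precision is limited by their number.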

Additional observations from a re-analysis of the deposited data

Results flagged for a closer look

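Groups of 5 arrays were looked at, 140 in all, for the 34 named members and the median of all members. Of these groups, 12 held a value far from the other 4. Chance gives about 1 in 20 for independent groups of normal values. These groups share the same 20 arrays, so that rate is no expectation for the count. Of the 12 values, 6 were from the postpartum array of cow C, each the lowest of the LP postpartum group. They were ATP5G1 at 8.26 (others 9.46 to 9.79), SDHA at 9.09 (10.10 to 10.27), SDHB at 9.94 (10.53 to 10.66), UQCRC2 at 8.97 (9.89 to 10.14), ATP5S at 6.31 (7.02 to 7.09) and the median deviation of all members at -0.365 (0.058 to 0.154). In LP antepartum, COX7B stood low in cow B at 7.91 (8.21 to 8.29) and CYCS stood high in cow A at 6.74 (5.98 to 6.16). In AP antepartum, ATP5G1 stood high in cow H at 9.19 (8.92 to 8.99), ATP5D low in cow F at 7.36 (7.51 to 7.57) and NDUFS6 low in cow G at 8.57 (9.19 to 9.40). In AP postpartum, UQCRH stood high in cow J at 7.93 (7.75 to 7.76). The antepartum array of cow F also had a skeletal muscle marker score of 1.52, against -0.23 to 0.19 in the other AP antepartum arrays.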

How the results depend on the processing

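No member passed for time over both diets or within AP with all arrays, and this count moved with the setting. For time over both diets it was 1 of 80 with the animal as a replicate block (NDUFV2, where 1.9% of all genes passed), 1 with quantile normalization (1.69%), 2 of 77 when genes under a mean log2 of 5 were left out (2.43%) and 2 with the animal as a random effect, chosen after seeing the data (NDUFV2 and NDUFA7, 2.29%). Leaving out 1 cow or array gave 0 to 8, and 8 came without cow C (2.24%) or without its postpartum array alone (2.73%). For time within AP it was 1 of 80 with the replicate block (0.63% of all genes), 1 with quantile normalization (0.45%), 1 with the random effect (0.909%) and 3 with only the AP arrays in the fit (ATP5G1, CYC1 and NDUFA12, 2.06%). It was 0 to 3 when a cow was left out, with 3 without cow C (1.21%), or 4 without its postpartum array (1.43%). In the other 4 comparisons 0 members passed under every setting run. The block changed no other call of the members. The cause of these moves was not tested beyond the array left out. Leaving out cows in turn, the median difference ran from 0.045 to 0.124 for time over both diets and from 0.095 to 0.136 in AP, 0 to 0.143 in LP, 0.013 to 0.059 for diet antepartum, -0.098 to 0.041 for diet postpartum and -0.154 to 0.033 for the interaction. The sign turned for 3 members that never passed. COX7A1, diet postpartum, was 0.04 and became 0 with quantile normalization or median centring and -0.07 without cow C or its postpartum array, with -0.07 to 0.14 over the cows left out. COX6B2, diet antepartum, was 0.08 and became -0.1 without cow B, with -0.1 to 0.16 over the cows left out. COX7B2, diet antepartum, was -0.2 and became 0 without cow C and 0.12 without cow I, with -0.44 to 0.12 over the cows left out. Since RMA sets all arrays on nearly one distribution, a change common to every gene would not show.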
